A study of Homo sapiens with 18 samples.

Results

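Knockdown of SPP1, the gene of the secreted phosphoprotein osteopontin, was compared with control guides in hiF-T cells. The comparison held 10 of the 18 poly(A) RNA-seq libraries of the study, chosen by their labels: 6 SPP1 knockdown libraries from 3 guides, and 4 control libraries from 2 backbone guides, with 2 biological replicates for each guide. The remaining 8 libraries, which carried guides to CDKN1A or KDM1A, entered only the estimate of the spread and a comparison without controls. hiF-T is a line of fibroblast-like cells derived from BJ human skin fibroblasts, in which the telomerase gene hTERT can be switched on. The labels give the same wild-type genotype for all the libraries, so the SPP1 knockdown and control libraries share the line and differed in the guide. Per the series' text, single genes were knocked down with CRISPR in a study of factors linked to the potential for reprogramming to pluripotency. Neither the form of CRISPR used, nor the guide sequences, nor the time after guide delivery is given in the sources used here.

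Osteopontin is a matrix-associated phosphoprotein that cells bind through integrins, by an RGD sequence read by the alpha v integrins and a neighbouring sequence that thrombin cleavage exposes, and it also binds CD44. It is best known from bone, and in skin it is known for its part in wound repair and fibrosis. Integrin binding is relayed through focal adhesions, where talin, kindlin and tensin link integrins to the actin cytoskeleton, and through kinases such as FAK and SRC to the ERK pathway.

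The fibroblast markers VIM and COL1A1 were at 5665 to 6349 and 1126 to 1566 TPM (a level scaled for transcript length and library size) in the SPP1 knockdown libraries, against 6029 to 6430 and 1409 to 1716 TPM in the controls, whereas THY1, another fibroblast marker, was at or below 0.729 TPM in all 10. Library sizes were 11907197 to 16510012 estimated counts in the SPP1 knockdown libraries and 13389477 to 15694395 in the controls. Of the marker lists of other cell types, 5 of 8 keratinocyte, 4 of 7 melanocyte, 6 of 7 endothelial, 4 of 8 leukocyte, 5 of 7 bone-forming cell and 2 of 6 pericyte or smooth muscle genes were under 1 TPM in all 10 libraries, KRT5 and KRT1 among them at 0. Some other members were not low. The keratin gene KRT10 was at 151 to 194 TPM in the knockdown libraries and 143 to 166 TPM in the controls. The lysosomal gene CD68 was at 74.4 to 91.0 TPM in the knockdown libraries and 63.8 to 86.5 TPM in the controls. TEK, which encodes an angiopoietin receptor, was at 18.3 to 26.4 TPM in the knockdown libraries and 27.7 to 32.9 TPM in the controls, and ACTA2 at 49.0 to 129 TPM in the knockdown libraries and 93.8 to 161 TPM in the controls. The summed keratinocyte list ran from 153 to 196 TPM in the knockdown libraries and from 145 to 169 TPM in the controls, and the summed leukocyte list from 75.4 to 93.5 TPM in the knockdown libraries and from 66.5 to 88.5 TPM in the controls. In bulk RNA, fewer cells of a type and less RNA per cell cannot be told apart. Libraries of 1 guide were not equally alike. Their counts differed by 16.7 times the sampling variance for SPP1 guide 3 and by 10.7 times for control guide 1, against 3.28 to 4.94 times for SPP1 guides 1 and 2 and control guide 2 (chi-square per degree of freedom).

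SPP1 itself (ENSG00000118785, chromosome 4, 87975650 to 87983426, plus strand, GRCh38) was lower on average in the knockdown libraries, but unevenly, and the difference did not pass the threshold over all genes. The 2 libraries of SPP1 guide 1 held 24.2 and 26.9 CPM (counts scaled to library size, not to length), those of guide 2 held 47.4 and 55.2 CPM, and those of guide 3 held 63.0 and 21.7 CPM, against 66.8 and 55.2 CPM with control guide 1 and 63.7 and 72.7 CPM with control guide 2. Both guide 1 libraries were low, the library labelled SPP1 guide 3 replicate 1 lay within the range of the controls, and the higher guide 2 library was level with the lowest control. Mean SPP1 was 39.7 ± 17.8 CPM in the knockdown libraries (SD, n = 6) and 64.6 ± 7.27 CPM in the controls (SD, n = 4). The log2 fold change was -0.71 ± 0.22 (SE), with an adjusted p of 0.0695 by edgeR's quasi-likelihood test with Benjamini-Hochberg adjustment over the 13527 genes tested. A two-sided exact permutation test of log2 CPM over the 10 libraries gave p = 0.0429 from the absolute difference of means, of 210 arrangements, the smallest possible p being 0.00476, and 0.019 by doubling the smaller tail. Permutation of single libraries treats the 2 libraries of a guide as independent, so its p-values do not measure the spread between guides. With the control guide 1 libraries left out, the log2 fold change was -0.79, with an adjusted p of 0.236 by edgeR and an exact permutation p of 0.143, where 28 arrangements allow no p under 0.0357.

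By guide, SPP1 stood at 39.6% of the control level with guide 1 (adjusted p = 0.00827), 79.7% with guide 2 (adjusted p = 0.443) and 66.8% with guide 3 (adjusted p = 0.144), from an edgeR fit with 1 coefficient per guide. Transcript SPP1-203 made up 74.6% of the SPP1 estimated counts in the knockdown libraries and 78.9% in the controls, so the same transcript led in each group. The CDKN1A and KDM1A knockdown libraries had more SPP1 than the controls, at means of 117 and 132 CPM. Set against the mean of those 2 knockdowns, SPP1 fell in the SPP1 knockdown libraries by 1.65 on the log2 scale (adjusted p = 5.56e-05 by edgeR), a comparison that uses no control library.

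**Figure D1:**
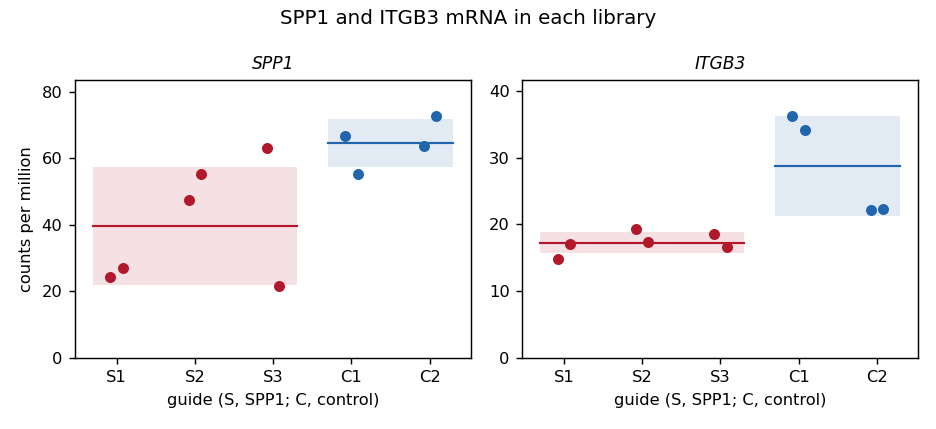
SPP1 and ITGB3 mRNA in CPM (vertical axis) for each of the 6 SPP1 knockdown libraries (red, guides S1 to S3) and the 4 control libraries (blue, guides C1 and C2). Points are libraries, lines group means and bands ± 1 SD: SPP1 overlapped between the groups, and all 6 knockdown libraries lay below the controls for ITGB3, with the C1 libraries at 36.2 and 34.1 CPM and the C2 libraries at 22.2 and 22.3 CPM.

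Among the 9 osteopontin receptor genes tested, 1 fell and none rose at an adjusted p under 0.05, where 5.46% of all genes tested were called. That gene was ITGB3 (chromosome 17, 47253846 to 47311816), the beta 3 chain that pairs with alpha v in the classical osteopontin receptor. Its level ran from 14.8 to 19.3 CPM, with a median of 17.2 CPM, in the SPP1 knockdown libraries, against 36.2, 34.1, 22.2 and 22.3 CPM in the controls. All 6 knockdown libraries lay below all 4 controls, and the control guide 1 libraries were far above those of control guide 2. The log2 fold change of ITGB3 was -0.74 ± 0.16 (adjusted p = 0.0147, edgeR), and it was -0.37 with an adjusted p of 0.38 without control guide 1. Against the mean of the CDKN1A and KDM1A knockdowns the log2 difference of ITGB3 was -0.03 and did not pass the test (adjusted p = 0.923).

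The partner chain ITGAV had a log2 fold change of -0.24 (adjusted p = 0.0817, edgeR), at 216 ± 28.04 CPM in the knockdown libraries against 255 ± 12.6 CPM in the controls, and 5 of the 6 knockdown libraries were below every control. Per transcript length, the receptor chains in the controls were ordered ITGB1 (1530 TPM), CD44 (909 TPM), ITGB5 (271 TPM), ITGA5 (221 TPM), ITGAV (60.3 TPM), ITGA4 (39.3 TPM) and ITGB3 (11.7 TPM), with ITGB8 and ITGA9 at or below 0.312 TPM in every control library. SPP1 mRNA stood at 80.4 ± 10.8 TPM in the controls (SD, n = 4), between ITGA5 and ITGAV. ITGB1 and CD44, the highest of these levels, did not pass the test: the log2 fold change was 0.13 for ITGB1 (adjusted p = 0.133) and -0.06 for CD44 (adjusted p = 0.42). IBSP, DMP1, DSPP and MEPE, which encode the other small integrin-binding glycoproteins of the SPP1 family, had no more than 3 estimated counts in any of the 10 libraries and were not tested.

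Of the 7 tested genes listed for osteopontin processing by cleavage, cross-linking or phosphorylation, PLAU, the urokinase plasminogen activator, rose and none fell. That was 14.3% of the list called, against 5.46% of all genes tested. PLAU ran from 86.7 to 132 CPM, with a median of 108 CPM, in the SPP1 knockdown libraries, against 77.4, 73.9, 80.7 and 80.9 CPM in the controls, so the groups did not overlap. Its log2 fold change was 0.46 ± 0.10 (adjusted p = 0.0115, edgeR), and 0.41 without control guide 1 (adjusted p = 0.18). TGM2, the transglutaminase that cross-links osteopontin, did not pass the test, with a log2 change of -0.42 (adjusted p = 0.139). Of 13 tested transcription factors known to act on SPP1, ETS1 and FOS fell (15.4% called). However, FOS had a log2 fold change of 0.18 without control guide 1 (adjusted p = 0.611), and none of its knockdown libraries lay below all controls. ETS1 ran from 142 to 181 CPM, with a median of 168 CPM, in the knockdown libraries, against 215, 227, 214 and 212 CPM in the controls, with no overlap (log2 fold change -0.39 ± 0.07, adjusted p = 0.0062). Without control guide 1 the log2 fold change of ETS1 was -0.36 (adjusted p = 0.11).

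Across the transcriptome, 738 of 13527 genes were called at an adjusted p under 0.05, 324 higher (2.4%) and 414 lower (3.06%) in SPP1 knockdown than in control. The changes were small: 569 of the 738 (77.1%) were under 1.5-fold, 53 reached 2-fold, and of these 6 rose and 47 fell. The median absolute log2 change of the called genes was 0.34, and the median log2 change of all genes tested was 0.00. Of the 738, 544 had no overlap between the groups, as did 6.34% of all genes tested.

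The number of calls depended on control guide 1. Without its 2 libraries, 7 of 13865 genes (0.0505%) were called, while 1813 genes (13.1%) had an unadjusted p under 0.05, 6.56% higher and 6.51% lower. With all 4 controls, 20.6% of genes had one, 9.86% higher and 10.7% lower. Without control guide 2 in place of guide 1, 671 genes were called (4.82%). Of single libraries, leaving out control guide 1 replicate 1 gave 363 calls, control guide 1 replicate 2 gave 184 and SPP1 guide 2 replicate 2 gave 445, while 502 were called without the library labelled SPP1 guide 3 replicate 1. The fit with 1 coefficient per guide, in which the p-values reflect only the spread between the 2 libraries of each guide, gave 1700 calls for the mean of the SPP1 guides against control guide 1 (12.6%) and 764 against control guide 2 (5.65%, with 2.08% higher and 3.56% lower). With the libraries of each guide summed, so that a guide counted as 1 sample, 1 gene was called. The 2 control guides themselves differed at 181 genes (1.34%). Of 60 named genes that were called, 22 kept the call whichever single library was left out, among them ATF3, ATP10A, DUSP4, DUSP5, EDN1, EPGN, ETS1, FLT1, GADD45A, GDF15, GPAT3, KLF2, LAMA4, NFKBIA, NPTX1, PHLDA1, PLA2G4A, SESN2, TGFBR2, TMEM200C and VCAN. The other 38 lost it without at least 1 library, most often control guide 1 replicate 2 (37 genes).

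**Figure D2:**
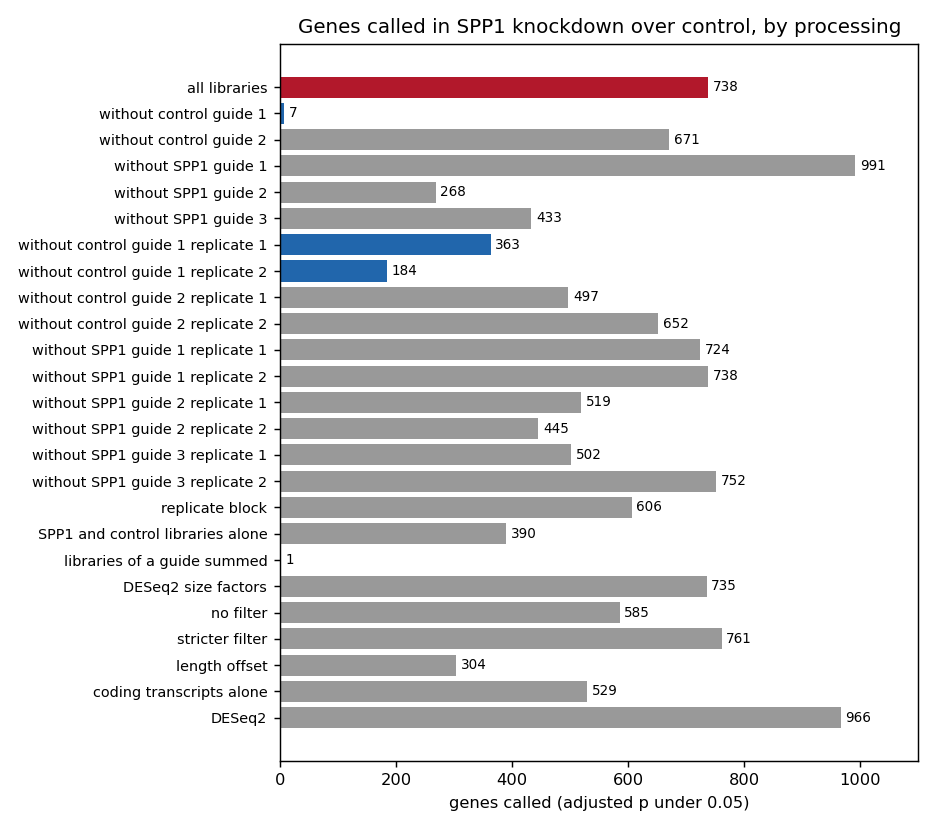
Number of genes called at an adjusted p under 0.05 in SPP1 knockdown over control (horizontal axis) with all libraries (red), without 1 or both libraries of control guide 1 (blue) and under each other processing (grey). The bar for all libraries stands at 738 and the bar without control guide 1 at 7.

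The 7 genes called without control guide 1 were GDF15, KLF2, SLC7A2, HIVEP1 and NR1D1, which fell, and CRYBG1 and GASK1B, which rose. Of these, all but GDF15 and KLF2 were picked for naming after their values were seen. GDF15, a stress-induced cytokine of the TGF-beta superfamily (chromosome 19, 18374731 to 18389176), had the smallest p of all genes in the comparison with 4 controls. GDF15 ran from 62.1 to 91.1 CPM, with a median of 76.3 CPM, in the SPP1 knockdown libraries, against 147, 130, 127 and 120 CPM in the controls. The groups did not overlap with either control guide. GDF15 changed by -0.78 ± 0.09 on the log2 scale (adjusted p = 0.000235, edgeR), and by -0.70 without control guide 1 (adjusted p = 0.0143). It was also lower than the mean of the CDKN1A and KDM1A knockdowns (log2 difference -0.76, adjusted p = 1.79e-05). The CDKN1A libraries averaged 204 CPM and the KDM1A libraries 81.4 CPM, a mean within the range of the SPP1 knockdown libraries.

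KLF2, a zinc finger transcription factor known from flow-exposed endothelium and quiescent lymphocytes, ran from 68.8 to 80.9 CPM, with a median of 72.4 CPM, in the knockdown libraries, against 111, 114, 122 and 114 CPM in the controls. KLF2 was thus lower in every knockdown library than in any control, with a log2 fold change of -0.64 ± 0.08 (adjusted p = 0.000591, edgeR) and of -0.68 without control guide 1 (adjusted p = 0.0182). The log2 fold changes without control guide 1 were -0.92 for SLC7A2, a cationic amino acid transporter (adjusted p = 0.0109), and -0.76 for NR1D1, the clock repressor REV-ERB alpha (adjusted p = 0.038). They were -0.69 for the zinc finger factor HIVEP1 (adjusted p = 0.0143), 0.59 for CRYBG1 (adjusted p = 0.0224) and 0.52 for GASK1B (adjusted p = 0.0334, edgeR). GASK1B was not called with all 4 controls, where its adjusted p was 0.0936.

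The largest rises included EPGN, NPTX1 and COL3A1. EPGN, the EGF-family ligand epigen, ran from 5.33 to 10.2 CPM, with a median of 7.78 CPM, in the SPP1 knockdown libraries, against 1.87, 2.02, 3.50 and 4.74 CPM in the controls. Its log2 fold change was 1.41 ± 0.21 (adjusted p = 0.00239, edgeR), and 0.96 without control guide 1 (adjusted p = 0.0718). NPTX1, a secreted pentraxin of neurons, was at 82.6 and 80.7 CPM with SPP1 guide 1, at 166 and 163 CPM with guide 2 and at 147 and 141 CPM with guide 3, against 46.2, 47.0, 77.0 and 71.2 CPM in the controls. NPTX1 with SPP1 guide 1 thus lay just above the control guide 2 libraries, and the log2 fold change over the 3 guides was 1.11 ± 0.21 (adjusted p = 0.00574, edgeR). Without control guide 1 it was 0.80 (adjusted p = 0.166). COL3A1, the fibrillar collagen III chain, reached 10.8 to 16.9 CPM, with a median of 14.2 CPM, in the knockdown libraries, against 5.74, 6.06, 6.74 and 7.61 CPM in the controls. The log2 fold change of COL3A1 was 1.10 ± 0.26 (adjusted p = 0.0218), and 0.96 without control guide 1 (adjusted p = 0.249).

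Further rises, with groups that did not overlap, were those of DGKG, a diacylglycerol kinase, GDF5, a ligand of the BMP family, TMEM132B, PLA2G4A, the cytosolic phospholipase that releases arachidonic acid, GPAT3, an acyltransferase of triglyceride synthesis, and ADAMTS15, a metalloprotease. PLA2G4A averaged 13.1 ± 2.47 CPM in the knockdown libraries and 6.99 ± 0.28 CPM in the controls, where all 4 values lay between 6.62 and 7.22 CPM. NCKAP5 and DPP4, a cell surface peptidase, rose as well, with 5 of 6 knockdown libraries above every control. The log2 fold changes of these 8 genes were 0.85 to 1.06 with all controls and 0.57 to 1.22 without control guide 1, where their adjusted p-values ran from 0.0718 to 0.374. HIST2H2AA3 also ranked among the rises, but kallisto divides reads between it and the near-identical HIST2H2AA4, and it was listed at 0 in 3 of 4 controls and in 1 knockdown library.

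TMEM200C, FLT1 and ATF3 were among the largest falls. FLT1, a receptor for VEGF, ran from 1.25 to 5.17 CPM, with a median of 2.71 CPM, in the SPP1 knockdown libraries, against 10.6, 10.2, 9.05 and 10.6 CPM in the controls. No knockdown library came near the controls, which were alike for both guides. FLT1 changed by -1.61 ± 0.26 on the log2 scale (adjusted p = 0.00292, edgeR), and by -1.57 without control guide 1 (adjusted p = 0.0718). Of 7 endothelial markers, 6 were under 1 TPM in all 10 libraries, and TEK, 1 of the 2 tested, fell. Their summed level was 19.0 to 27.3 TPM in the knockdown libraries against 28.04 to 34.14 TPM in the controls, and its part in the fall of FLT1 was not tested. TMEM200C averaged 1.12 ± 0.35 CPM in the knockdown libraries against 3.57 ± 0.77 CPM in the controls (log2 fold change -1.69 ± 0.29, adjusted p = 0.0036). GFRA1, the co-receptor for GDNF, averaged 2.29 ± 0.94 CPM against 5.34 ± 0.83 CPM, and ATP10A, a phospholipid flippase, 13.4 ± 1.03 CPM against 33.2 ± 8.44 CPM, in knockdown and control libraries, without overlap. Without control guide 1 the log2 fold change of ATP10A went from -1.31 to -0.96 (adjusted p = 0.163). That of GFRA1 went from -1.20 to -1.05 (adjusted p = 0.192), and TMEM200C had -1.49 (adjusted p = 0.0923).

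Other large falls took much of their size from control guide 1. DACT1, an antagonist of WNT signalling, stood at 3.24 ± 0.80 CPM in the knockdown libraries, against 10.4 and 10.5 CPM with control guide 1 and 4.89 and 4.74 CPM with control guide 2. Its log2 fold change was -1.25 with all controls and -0.59 without guide 1. MSC, the transcription factor musculin, had -1.43 and -0.96, and TLL1, a tolloid-like protease, -1.17 and -0.76. FOSB, an AP-1 subunit, was at 2.75 to 10.3 CPM, with a median of 4.90 CPM, in the knockdown libraries, against 23.1 and 26.8 CPM with control guide 1 and 5.15 and 5.90 CPM with control guide 2. FOSB in the knockdown libraries overlapped with control guide 2, and its log2 fold change was -1.48 (adjusted p = 0.0334, edgeR) with all controls and -0.02 (adjusted p = 0.991) without control guide 1. TIMM22 and BAG6 also ranked among the falls by rule, with control values of 0 to 16.9 CPM for TIMM22 and 9.58 to 52.0 CPM for BAG6. How kallisto assigned the reads of these 2 genes among their transcripts is uncertain, and their groups overlapped.

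**Figure D3:**
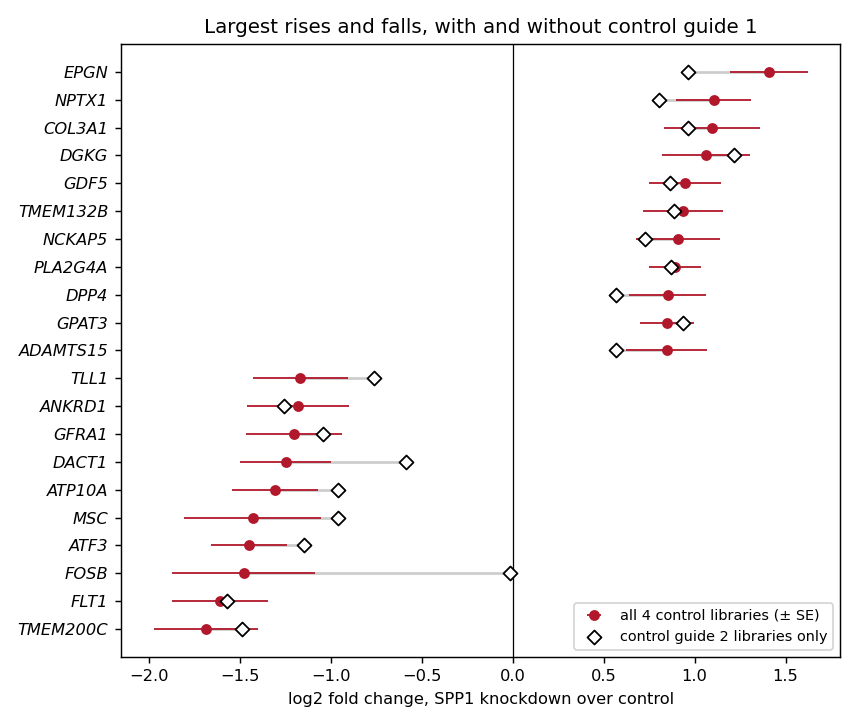
Log2 fold change of SPP1 knockdown over control (horizontal axis) for the named genes of largest rise and fall, with all 4 control libraries (red, ± SE) and with the control guide 2 libraries only (open diamonds). HIST2H2AA3, TIMM22 and BAG6, which also ranked among them, are left out of the figure. FLT1 kept its value (-1.61 and -1.57), while FOSB lay at 0 with control guide 2 only (-1.48 and -0.02).

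Of 21 tested genes of TGF-beta signalling and of the response to the mechanical coactivator YAP, 9 fell in SPP1 knockdown, 1 rose and 11 did not pass the test (47.6% called, against 5.46% of all genes tested). Among the 11 were the receptor tyrosine kinase gene AXL (log2 fold change -0.04), the tissue factor gene F3 (0.02), AJUBA (-0.10) and TGFBI (-0.40, adjusted p = 0.135). The list's median log2 change was -0.35, beside 0.00 over all genes. Without control guide 1, none was called by edgeR, 10 were lower and 1 higher at an unadjusted p under 0.05 (6.51% lower and 6.56% higher over all genes), and the list's median was -0.24. Against control guide 2 in the fit by guide, 11 were lower and 1 higher (3.56% lower and 2.08% higher over all genes). Without SPP1 guide 2, 4 fell, without SPP1 guide 3, 6 fell, and without the library labelled SPP1 guide 3 replicate 1, 7 fell, each time with 1 that rose, where 1.99%, 3.21% and 3.72% of all genes were called. EDN1, the precursor of the vasoconstrictor endothelin 1 (chromosome 6, 12290363 to 12297194), was at 70.0 and 70.4 CPM with SPP1 guide 1, at 51.7 and 52.0 CPM with guide 2 and at 46.2 and 47.7 CPM with guide 3, against 136, 125, 114 and 129 CPM in the controls. Libraries of 1 guide were close to each other, and the highest knockdown library stood well below the lowest control. EDN1 changed by -1.16 ± 0.16 on the log2 scale (adjusted p = 0.00184, edgeR), and by -1.11 without control guide 1 (adjusted p = 0.062).

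CCN2, the matricellular connective tissue growth factor, averaged 878 ± 139 CPM in the knockdown libraries and 1353 ± 146 CPM in the controls (log2 fold change -0.62, adjusted p = 0.00574). ANKRD1, a YAP target of the muscle ankyrin repeat family, stood at 59.5 ± 21.7 CPM against 136 ± 8.73 CPM in knockdown and control libraries, and its log2 fold change was -1.18 with all controls and -1.26 without control guide 1. The feedback inhibitors SMAD7 and SKIL, the ligand TGFB1, the receptor chain TGFBR1 and the matricellular CCN1 also fell, with log2 fold changes of -0.74, -0.53, -0.35, -0.24 and -0.32. Without control guide 1 their values were -0.78, -0.55, -0.24, -0.14 and -0.19, and that of CCN2 was -0.485.

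The receptor chain TGFBR2 went the other way. TGFBR2 ran from 357 to 484 CPM, with a median of 436 CPM, in the knockdown libraries, against 262, 277, 302 and 296 CPM in the controls, with no overlap. It rose by 0.58 ± 0.10 on the log2 scale (adjusted p = 0.00472, edgeR), and the value without control guide 1 was 0.50 (adjusted p = 0.124). Against the mean of the CDKN1A and KDM1A knockdowns, TGFBR2 rose by 0.28 (adjusted p = 0.0403) and EDN1 fell by 0.65 (adjusted p = 0.00737).

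The bases before the starts of EDN1 and CCN2 are shown because both genes fell and their annotated starts in the files' build match the RefSeq windows (GRCh38.p14). Capitals mark the letters GGAATG, which TEAD factors, the partners of YAP, bind, TGANTCA, bound by AP-1, and CAGACA, which SMAD factors bind, each searched on both strands. The EDN1 window is chr6:12290111-12290360 on the plus strand, and the CCN2 window is chr6:131951374-131951622 on the minus strand, read 5′ to 3′ towards the gene.
EDN1: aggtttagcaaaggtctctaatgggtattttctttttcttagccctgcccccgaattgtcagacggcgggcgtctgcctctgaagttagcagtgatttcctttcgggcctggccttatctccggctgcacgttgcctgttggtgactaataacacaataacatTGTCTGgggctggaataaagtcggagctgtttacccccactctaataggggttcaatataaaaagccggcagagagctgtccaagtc
CCN2: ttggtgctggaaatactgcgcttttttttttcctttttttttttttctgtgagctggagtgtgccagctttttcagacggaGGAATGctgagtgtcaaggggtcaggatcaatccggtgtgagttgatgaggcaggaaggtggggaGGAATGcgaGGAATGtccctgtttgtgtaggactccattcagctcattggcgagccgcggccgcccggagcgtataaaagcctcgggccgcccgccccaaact
The EDN1 window held 1 match to the SMAD letters, on the opposite strand, and the CCN2 window held 3 to the TEAD letters, which lie 168, 103 and 94 bases before the end of the window. Of 35116 RefSeq windows of 250 bases, 11.9% held the TEAD letters, 6.57% the AP-1 letters and 13.6% the SMAD letters. A match of letters is a description of the window and shows no binding in these cells.

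Genes of the contractile apparatus and of focal adhesions fell in small numbers. Of 13 contractile genes tested, TPM1 and TGFB1I1 fell and none rose (15.4% called, against 5.46% of all genes). TPM1, an actin-binding tropomyosin, ran from 830 to 1097 CPM, with a median of 906 CPM, in the SPP1 knockdown libraries, against 1680, 1512, 1333 and 1381 CPM in the controls, with no overlap (log2 fold change -0.64 ± 0.16, adjusted p = 0.0223, edgeR). ACTA2, the smooth muscle actin of myofibroblasts, varied widely, at 59.6 ± 25.9 CPM in the knockdown libraries against 88.7 ± 26.3 CPM in the controls, and did not pass the test (adjusted p = 0.447). Of 18 focal adhesion genes (22.2% called), TNS1, TLN1, FERMT2 and ACTN1 fell, which encode tensin 1, talin 1, kindlin 2 and alpha actinin 1. TNS1 stood at 151 ± 31.4 CPM in the knockdown libraries and at 274 ± 54.7 CPM in the controls (log2 fold change -0.86 ± 0.19, adjusted p = 0.0155), and TLN1 at 1100 ± 73.5 CPM and 1308 ± 79.9 CPM. The kinase PTK2, which encodes FAK, had a log2 fold change of 0.20 (adjusted p = 0.0907) and SRC one of 0.21 (adjusted p = 0.0817). Without control guide 1 no gene of these lists was called by edgeR, while 2 contractile and 4 focal adhesion genes were lower and 1 focal adhesion gene was higher at an unadjusted p under 0.05, a level that 6.51% of all genes passed as lower and 6.56% as higher. The pericyte or smooth muscle markers, summed, ran from 111 to 208 TPM in the knockdown libraries and from 176 to 243 TPM in the controls, and 1 of the 4 tested, CSPG4, fell; their part in these changes was not tested.

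Among 30 extracellular matrix genes, 4 fell and 2 rose, beside 5.46% of all genes called, and the median was -0.01. The basement membrane collagen chains COL4A1 and COL4A2, which share a promoter region, fell together, at 701 ± 93.0 CPM against 1232 ± 107 CPM for COL4A1 and 1193 ± 172 CPM against 1812 ± 66.7 CPM for COL4A2, in knockdown and control libraries. VCAN, the proteoglycan versican, ran from 259 to 367 CPM, with a median of 304 CPM, in the knockdown libraries, against 416, 489, 440 and 449 CPM in the controls (log2 fold change -0.55 ± 0.11, adjusted p = 0.00893, edgeR). Without control guide 1 no gene of the matrix list was called by edgeR. The log2 fold changes were then -0.71 for COL4A1 (adjusted p = 0.27), -0.585 for COL4A2 (adjusted p = 0.202) and -0.54 for VCAN (adjusted p = 0.122). COL7A1, the collagen of anchoring fibrils, had a log2 fold change of -0.99 that became -0.27 without control guide 1. LAMA4, a laminin chain, rose with COL3A1: it ran from 14.1 to 19.6 CPM, with a median of 16.3 CPM, in the knockdown libraries, against 10.4, 11.9, 7.93 and 10.3 CPM in the controls (log2 fold change 0.70 ± 0.14, adjusted p = 0.00816), and its value without control guide 1 was 0.85 (adjusted p = 0.0718). The mRNAs of fibronectin and collagen I did not pass the test, with log2 fold changes of -0.13 for FN1, -0.15 for COL1A1 and 0.13 for COL1A2.

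Among 17 tested proteases and inhibitors that act on matrix, 2 rose, MMP1 and PLAU, and 1 fell (17.6% called, against 5.46% of all genes). MMP1, the interstitial collagenase (chromosome 11, 102789920 to 102798160), ran from 8986 to 11620 CPM, with a median of 10600 CPM, in the SPP1 knockdown libraries, against 5999, 5607, 6631 and 6994 CPM in the controls. All 6 knockdown libraries exceeded all 4 controls, by a log2 fold change of 0.72 ± 0.17 (adjusted p = 0.0175, edgeR), or 0.61 without control guide 1 (adjusted p = 0.237). MMP2, MMP14, TIMP1 and TIMP2 did not pass the test. MMP1 averaged 9698 CPM in the CDKN1A and 8847 CPM in the KDM1A knockdown libraries, and its log2 difference from them was 0.17 (adjusted p = 0.46).

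Of 23 tested targets of p53, 10 fell in SPP1 knockdown, none rose and 13 did not pass the test, CDKN1A among them (43.5% called, against 5.46% of all genes). The log2 fold change was above 0 for RRM2B (0.10), TP53I3 (0.10) and CCNG1 (0.16). The list's median was -0.30, or -0.16 without control guide 1, where GDF15 was the member called and 8 were lower at an unadjusted p under 0.05 (6.51% of all genes). Against control guide 2 in the fit by guide, 6 were lower, as were 3.56% of all genes. Without SPP1 guide 2 the number that fell was 4, without SPP1 guide 3 it was 5, and without the library labelled SPP1 guide 3 replicate 1 it was 6. Of all genes, 1.99%, 3.21% and 3.72% were called in those 3 fits. GADD45A, a growth arrest protein, ran from 104 to 146 CPM, with a median of 122 CPM, in the knockdown libraries, against 189, 178, 160 and 171 CPM in the controls (log2 fold change -0.47 ± 0.08, adjusted p = 0.00326, edgeR). SESN2, a stress-induced inhibitor of mTORC1, averaged 9.26 ± 1.26 CPM in the knockdown libraries and 13.3 ± 1.07 CPM in the controls, with no overlap. MDM2, BTG2, BBC3, DDB2, PLK2, PLK3 and TP53INP1 were the others that fell, by 0.29 to 1.05 on the log2 scale. Without control guide 1, the log2 fold change went from -0.636 to -0.185 for BBC3, from -0.409 to -0.155 for PLK3 and from -0.303 to -0.178 for DDB2. It went from -0.313 to -0.221 for TP53INP1, from -0.360 to -0.283 for MDM2, from -1.049 to -0.768 for BTG2 and from -0.291 to -0.262 for PLK2. CDKN1A, the p21 cell cycle inhibitor, did not pass the test, at 492 ± 47.3 CPM against 612 ± 65.9 CPM in knockdown and control libraries (log2 change -0.32, adjusted p = 0.116). The p53 target BAX (adjusted p = 0.889) and the DNA repair gene XPC (adjusted p = 0.692) did not pass the test.

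Genes of the integrated stress response and of the NRF2 response fell in smaller numbers. Of 14 stress response genes, ATF4, ATF3, SESN2 and SLC3A2 fell (28.6% called, against 5.46% of all genes). A log2 change below 0 was seen for 13 of the 14, and for 6606 of all 13527 genes tested. Without control guide 1 none of the 14 was called by edgeR, and the list's median went from -0.28 to -0.20. ATF3, a factor shared with the AP-1 list, ran from 2.38 to 6.98 CPM, with a median of 4.69 CPM, in the knockdown libraries, against 15.1, 14.6, 10.3 and 9.79 CPM in the controls. The groups did not overlap for ATF3, and control guide 1 was again the higher of the control guides (log2 fold change -1.45 ± 0.21, adjusted p = 0.00209; -1.15 and 0.0718 without it, edgeR). ATF4 itself, the factor that drives these genes, averaged 292 ± 23.8 CPM against 349 ± 32.3 CPM in knockdown and control libraries (log2 fold change -0.26, adjusted p = 0.0302). Without control guide 1 the value for ATF4 was -0.15 (adjusted p = 0.421). Of 11 NRF2 and iron storage genes, HMOX1 and GCLM fell (18.2% called). Without control guide 1 none of the 11 was called by edgeR, and the list's median went from -0.13 to -0.20. HMOX1, heme oxygenase 1, ran from 18.7 to 31.3 CPM, with a median of 24.8 CPM, in the knockdown libraries, against 61.5, 59.6, 47.9 and 45.5 CPM in the controls, with no overlap (log2 fold change -1.10 ± 0.25, adjusted p = 0.0175). Without control guide 1 its log2 fold change was -0.90, with an adjusted p of 0.232.

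Of 15 immediate early genes tested, 6 fell and none rose (40.0% called, against 5.46% of all genes): ATF3, FOSB, FOS, KLF2, EGR1 and JUNB. The list's median log2 change was -0.17 with all controls and -0.02 without control guide 1. FOS was at 9.27 to 12.4 CPM, with a median of 9.60 CPM, in the SPP1 knockdown libraries, against 31.7 and 31.8 CPM with control guide 1 and 9.32 and 8.47 CPM with control guide 2. The knockdown libraries thus overlapped with control guide 2, and the log2 fold change of -1.01 (adjusted p = 0.0396, edgeR) turned positive without control guide 1, at 0.18 (adjusted p = 0.611). JUNB had a log2 fold change of -0.43 with all controls and -0.07 without control guide 1, whereas EGR1 had -0.59 and -0.46, and KLF2 was the member called without control guide 1. Without the library labelled SPP1 guide 3 replicate 1, 3 of the 15 fell, where 3.72% of all genes were called. The other AP-1 subunits FOSL1, FOSL2, JUN and JUND did not pass the test, with log2 fold changes of -0.15 to -0.07.

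Of 13 ERK feedback genes tested, 5 rose and none fell (38.5% called, against 5.46% of all genes), and the median was 0.22, or 0.18 without control guide 1. DUSP5, a nuclear phosphatase of ERK, ran from 80.0 to 95.4 CPM, with a median of 85.1 CPM, in the knockdown libraries, against 53.2, 51.8, 60.7 and 58.7 CPM in the controls. PHLDA1, an ERK-induced gene, ran from 211 to 252 CPM, with a median of 219 CPM, in the knockdown libraries, against 166, 160, 163 and 159 CPM in the controls. Both control guides were low for the pair, and every knockdown library was above every control. The log2 fold changes were 0.62 ± 0.12 for DUSP5, 0.49 ± 0.09 for PHLDA1 and 0.50 ± 0.10 for DUSP4, with adjusted p-values of 0.00718, 0.00718 and 0.00801 (edgeR). SPRY2, an inhibitor of receptor tyrosine kinase signalling, and the ETS factor ETV1 rose by 0.40 and 0.77. Without control guide 1 the 5 genes had log2 fold changes of 0.37 to 0.71, none of them called by edgeR, and 5 members of the list were higher at an unadjusted p under 0.05, as were 6.56% of all genes. DUSP6, the cytoplasmic ERK phosphatase, had a log2 fold change of 0.18 (adjusted p = 0.406), and DUSP1 had -0.17 (adjusted p = 0.362). Against control guide 2 in the fit by guide, 5 members were higher and 1 lower (2.08% higher and 3.56% lower over all genes). Without SPP1 guide 2, 3 rose, without SPP1 guide 3, 4 rose, and without control guide 2, 3 rose. Of all genes, 1.99%, 3.21% and 4.82% were called in those fits.

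**Figure D4:**
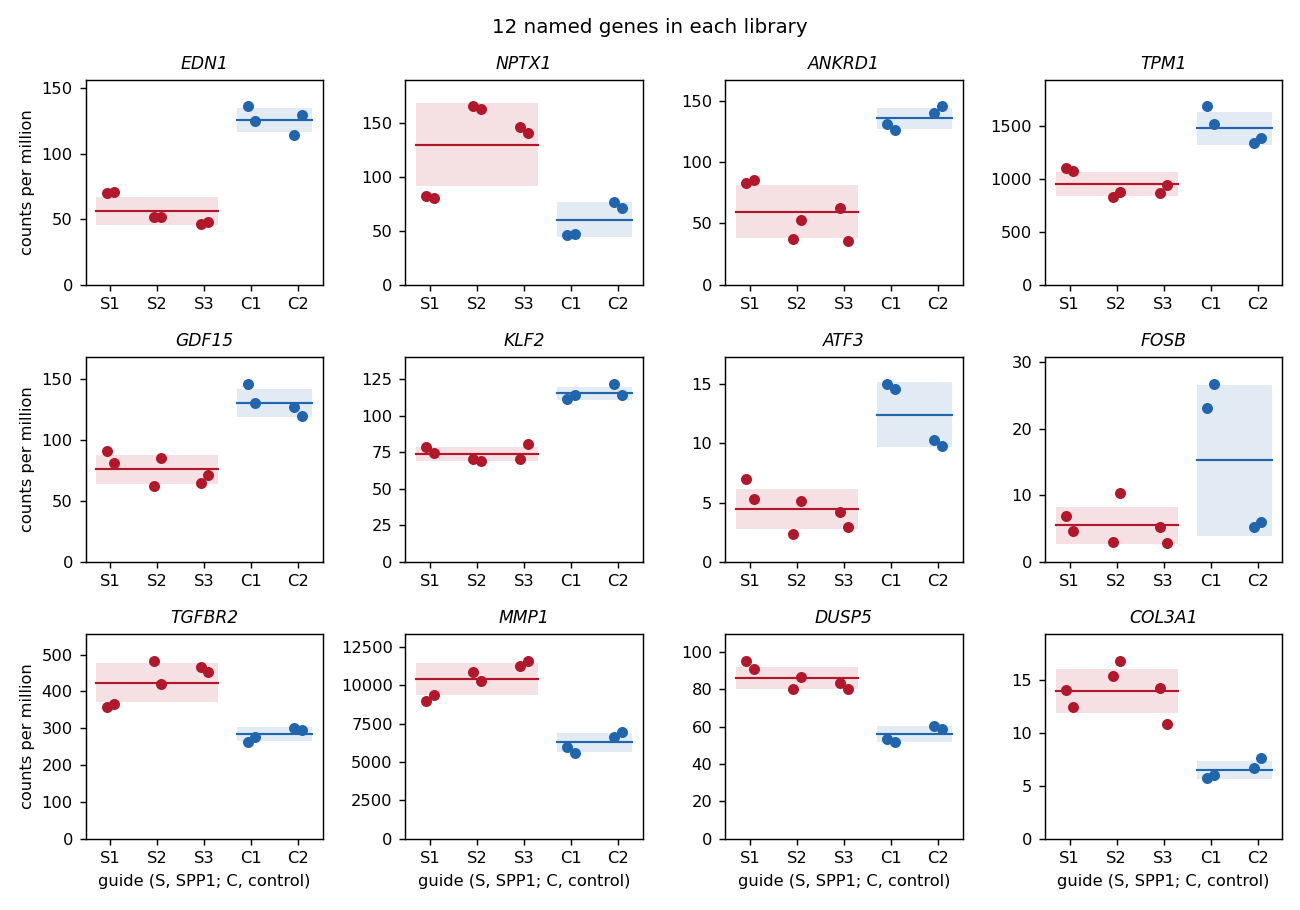
CPM values (vertical axes, each from 0) of 12 named genes in the 6 SPP1 knockdown libraries (red, guides S1 to S3) and the 4 control libraries (blue, guides C1 and C2). Points are libraries, lines group means and bands ± 1 SD. EDN1 was at 46.2 to 70.4 CPM in the knockdown libraries and 114 to 136 CPM in the controls, while FOSB was at 23.1 and 26.8 CPM in the C1 libraries and at 5.15 and 5.90 CPM in the C2 libraries.

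Changes of cell cycle genes were small, but most of them were below 0. Of 22 genes of G1/S and DNA replication, the licensing factors CDC6 and CDT1 and the thymidylate synthase gene TYMS fell (13.6% called), with log2 fold changes of -0.32, -0.25 and -0.20. The log2 change was below 0 for 20 of the 22, and for 6606 of all 13527 genes tested. At an unadjusted p under 0.05 by edgeR, 9 of the 22 were lower and none higher (10.7% and 9.86% of all genes). Without control guide 1 none was called, while 8 were lower and none higher at that level (6.51% and 6.56% of all genes). The median of the G1/S list went from -0.134 to -0.155 without control guide 1. Of 22 genes of G2/M and mitosis, CDK1 fell (log2 fold change -0.26, adjusted p = 0.0484), a share of 4.55% that is near the 5.46% of all genes tested. Without control guide 1 the log2 fold change of CDK1 was -0.12 (adjusted p = 0.547, edgeR). The log2 change was below 0 for 20 of the 22 G2/M genes. At an unadjusted p under 0.05, 9 of them were lower with all controls and 1 without control guide 1. The median of the G2/M list went from -0.10 to -0.05. CDC6 ran from 53.1 to 61.7 CPM, with a median of 56.8 CPM, in the knockdown libraries, against 65.3, 65.4, 71.7 and 81.3 CPM in the controls. The groups did not overlap, and the control guide 2 libraries were the higher, so CDC6 had -0.43 without control guide 1 (adjusted p = 0.0718). The pocket protein gene RBL1 fell among 10 CDK inhibitor and pocket protein genes, by 0.20 on the log2 scale (adjusted p = 0.0178). Without control guide 1 the log2 fold change of RBL1 was -0.23 (adjusted p = 0.0984).

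Among 16 inflammatory genes, NFKBIA, the inhibitor of NF-kappa B, and PTGS2, the prostaglandin synthase COX-2, fell (12.5% called, against 5.46% of all genes). NFKBIA averaged 22.7 ± 1.71 CPM in the knockdown libraries and 33.3 ± 2.64 CPM in the controls, without overlap, and its log2 fold change was -0.55 with all controls and -0.62 without control guide 1. PTGS2 ran from 45.4 to 65.4 CPM in the knockdown libraries, against 118 and 126 CPM with control guide 1 and 66.4 and 66.6 CPM with control guide 2. Its log2 fold change was -0.68 (adjusted p = 0.0185) with all controls and -0.18 without control guide 1. CDH2, the mesenchymal N-cadherin, was the member that fell among 13 mesenchymal genes, a share of 7.69% that is near that of all genes, at 275 ± 38.7 CPM in knockdown and 433 ± 28.2 CPM in control libraries (log2 fold change -0.66 ± 0.14, adjusted p = 0.0126, edgeR). Without control guide 1 the log2 fold change of CDH2 was -0.59 (adjusted p = 0.179). Of 15 hypoxia and glycolysis genes (13.3% called), LDHA, lactate dehydrogenase A, rose by 0.21 and SLC2A1, the glucose transporter GLUT1, fell by 0.36 on the log2 scale. Without control guide 1 the log2 fold changes were 0.17 for LDHA (adjusted p = 0.249) and -0.35 for SLC2A1 (adjusted p = 0.236).

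No member was called by edgeR in 5 lists. Over all genes, 9.86% were higher and 10.7% lower at an unadjusted p under 0.05, and DESeq2 called 8.26% of the genes to which it gave an adjusted p. For 17 interferon response genes the median was 0.25, 6 were higher and none lower at an unadjusted p under 0.05, and DESeq2 called 2 of them higher. For 21 cholesterol synthesis genes, 3 were higher at an unadjusted p under 0.05 and DESeq2 called none. Among 13 heat shock and chaperone genes, 2 were higher and 2 lower at that level, and DESeq2 called 1 higher. No pluripotency gene of 10 tested passed an unadjusted p of 0.05 or was called by DESeq2. Of 13 mitochondrially encoded mRNAs, 1 was lower at an unadjusted p under 0.05 and none was called by DESeq2. TERT, at 2475 ± 218 CPM in SPP1 knockdown and 2734 ± 144 CPM in control libraries, was in the pluripotency list and did not pass the test (adjusted p = 0.27).

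**Figure D5:**
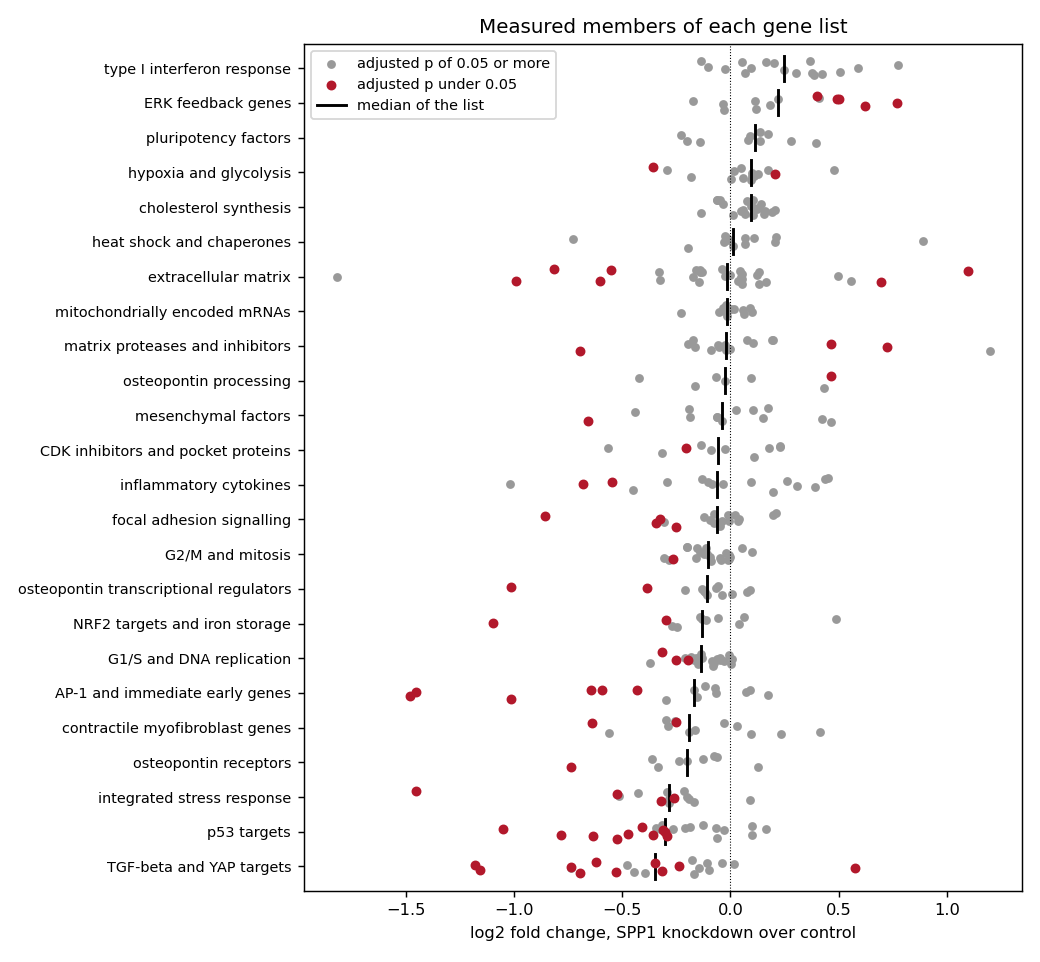
Log2 fold change of SPP1 knockdown over control (horizontal axis) for the tested members of each gene list (points), with genes at an adjusted p under 0.05 in red and list medians as black bars. Red points lay below 0 in the TGF-beta and YAP list, except for TGFBR2, and in the p53 list, and above 0 in the ERK feedback list.

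The number of calls was lower with SPP1 guide 1 than with the other guides. SPP1 guide 1, with the lowest SPP1, gave 619 calls (4.58%, with 1.98% higher and 2.59% lower) against the mean of the control guides. Guide 2 gave 1440 (10.6%, with 5.41% higher and 5.23% lower) and guide 3 gave 1427 (10.5%, with 4.56% higher and 5.99% lower), with 268 genes called in the same direction with each guide. That number was 101 without SPP1 guide 1 replicate 1, 89 without SPP1 guide 1 replicate 2 and 172 without control guide 2 replicate 1. The guides share the control libraries, so their calls are not independent. The median absolute log2 change of the 738 genes was 0.27 with guide 1, 0.38 with guide 2 and 0.38 with guide 3. For the TGF-beta and YAP list, 10 members fell with guide 1, 9 with guide 2 and 14 with guide 3, and 1 rose with each. For the ERK feedback list, 5 members rose with guide 1, 6 with guide 2 and 5 with guide 3, while none fell with guide 1, 1 with guide 2 and 1 with guide 3. EDN1 changed by -0.84, -1.28 and -1.42 with guides 1, 2 and 3, while SPP1 itself changed by -1.34, -0.33 and -0.58. The differences between guides were not tested here.

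Compared with the mean of the CDKN1A and KDM1A knockdowns, a contrast that holds no control library, the SPP1 knockdown differed at 1402 genes (10.4%), with 613 higher (4.53%) and 789 lower (5.83%). The 6 SPP1 knockdown libraries are the same as in the comparison with control, so the calls of the 2 comparisons are not independent. By list, 8 of 23 p53 targets were lower in SPP1 knockdown, as were 8 of 22 G2/M genes and 4 of 21 TGF-beta and YAP targets, of which 1 was higher. Of 21 cholesterol synthesis genes, 9 were higher in SPP1 knockdown than in the other knockdowns. GDF15, KLF2, EDN1, ANKRD1, DUSP4, DUSP5, LAMA4, NPTX1, ETS1 and RBL1 were among the named genes called in the same direction as against control. ANKRD1 stood at 59.5 ± 21.7 CPM in SPP1 knockdown libraries and 136 ± 8.73 CPM in the controls. It stood at 84.3 ± 12.9 CPM in CDKN1A knockdown and at a widely spread 181 ± 97.5 CPM in KDM1A knockdown libraries (SD, n = 4 each). LAMA4 averaged 16.4 ± 2.07 CPM in SPP1 knockdown, 7.72 ± 1.94 CPM in CDKN1A knockdown and 11.5 ± 0.97 CPM in KDM1A knockdown libraries. For MMP1, ITGB3 and PTGS2, the log2 difference from the other knockdowns lay between -0.03 and 0.17, with adjusted p-values of 0.46 to 0.923.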

How the data were processed

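Per the labels' protocols, RNA was extracted with RNeasy Micro columns and made into poly(A)-selected NEBNext Ultra II libraries. Per the submitters' processing notes, the authors used kallisto with build GRCh38 (hg38); no source used here names its version or the transcript release. The deposited tables, 1 per library, hold estimated counts, TPM and effective lengths per transcript, as kallisto writes them per the file headers. kallisto divides reads among alike transcripts, so near-identical genes are uncertain.

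Transcripts were matched to GENCODE 29 genes by Ensembl ID without version. Of 188753 transcripts, 169797 (90.0%) matched, and 2.49% to 2.62% of the estimated counts per library did not. Estimated counts were summed over the 35579 genes and rounded to whole numbers. edgeR 4.0.16 (R 4.3.3) was run on all 18 libraries with TMM scaling, filterByExpr with a minimum count of 10 and 1 coefficient per group. Its quasi-likelihood test with Benjamini-Hochberg adjustment covered 13527 genes, with a threshold of 0.05. All adjusted p-values are from edgeR unless DESeq2 (1.42.0) is named. A second fit had 1 coefficient per guide. CPM values used TMM-scaled library sizes, and SDs are over libraries (n = 6 SPP1 knockdown, n = 4 control). The scripts were tested on simulated data.

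The labels call replicates biological and do not say whether they were separate cultures, so p-values measure the spread between these libraries. Named genes were SPP1, its receptors, the 12 called genes that rose most and the 12 that fell most (mean log2 CPM not under 1, direction shared by the 3 guides), and up to 3 called members of smallest p in each of 25 lists, or else the member of smallest p. Further list members are named with their list. Not every called list member is reported by name here. The members and lists were chosen with earlier results of these data known. Alternatives were leaving out each guide or library, a replicate block, the 10 libraries alone, libraries summed by guide, other scaling, filters, a length offset, coding transcripts alone and DESeq2. Same-numbered libraries of different guides did not deviate together. Python 3.11.15 with pandas 2.3.3, SciPy 1.17.1 and matplotlib 3.10.9 was used for tables, permutation tests and figures.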

Additional observations from a re-analysis of the deposited data

Results flagged for a closer look

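A library stood far from the rest of its group in 7 of 148 groups examined (CPM of the named genes in the SPP1 knockdown or control libraries), where chance gives about 1 in 20. In the SPP1 knockdown libraries, ITGA4 was at 117.3 CPM in guide 2 replicate 1, against 96.0 to 103 CPM in the other 5. TMEM132B was at 13.64 CPM in guide 3 replicate 1, against 7.29 to 8.59 CPM in the others, and LDHA at 1734 CPM in guide 3 replicate 2, against 1431 to 1506 CPM. In the controls, ETS1 was at 226.9 CPM in guide 1 replicate 2, against 212 to 215 CPM in the other 3, and GDF5 at 1.951 CPM in the same library, against 2.577 to 2.696 CPM. HIST2H2AA3 was at 0.418 CPM there and listed at 0 in the other 3 controls. BAG6 was at 52.04 CPM in control guide 2 replicate 2, against 9.58 to 16.3 CPM in the other controls.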

How the results depend on the processing

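The 738 calls became 7 without control guide 1, 268 without SPP1 guide 2, 433 without SPP1 guide 3, 390 with the 10 libraries alone, 1 with the libraries of a guide summed and 304 with a length offset. Leaving out single libraries gave 184 to 752, and DESeq2 gave 966. The 268 genes called with each SPP1 guide became 107 without control guide 1, 84 with the 10 libraries alone and 103 with a length offset, and 89 to 354 when single libraries were left out. The 454 genes called against each control guide became 139 with the 10 libraries alone, 189 with a length offset and 156 to 717 when single libraries were left out: 299 without control guide 1 replicate 2, 156 without control guide 2 replicate 1, 174 without its replicate 2, and 717 when SPP1 guide 3 replicate 1 was left out. The 1402 genes called against the other knockdowns became 33 with libraries summed and 625 with a length offset. Fewer samples enter the fits without a guide or library and those on summed libraries. Leaving out control guide 2, which has as many libraries as control guide 1, gave 671 calls, and leaving out SPP1 guide 1 gave 991. The causes of the changes in these fits and with a length offset were not tested. SPP1 mRNA passed the threshold without SPP1 guide 3 (log2 fold change -0.762, adjusted p = 0.0389, edgeR) and with no filter on low counts (-0.702, adjusted p = 0.0322). Without single libraries it ranged from -0.888, without SPP1 guide 3 replicate 1 (adjusted p = 0.0248), to -0.584. FOS reversed to 0.177 without control guide 1.

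Replicate numbers did not pair the libraries: between 10 pairs of guides, the correlation of deviations ran from -0.117 to 0.073. With a replicate block, 606 genes were called in SPP1 knockdown over control, 237 with each SPP1 guide, 402 against each control guide and 1248 against the other knockdowns, and SPP1 mRNA had -0.71 (adjusted p = 0.0797). Of the 60 called named genes, none kept its call under all alternatives, since all 60 lost it with libraries summed by guide.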
